A study of Mus musculus with 6 samples.

Results

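The late phase of the lipopolysaccharide (LPS) response in wild-type mouse macrophages was described by setting the library taken after 24 h of LPS against the library taken after 12 h. Of the 17904 genes in the expression table, 10642 reached 1 FPKM (fragments scaled by transcript length and library size) in at least 1 of the 2 libraries and were compared. Each gene's size was the difference of log2(FPKM + 1), 24 h minus 12 h, so a positive value means a higher level at 24 h. A gene was called when this difference reached 1 in size, which is 2-fold on that scale. The added 1 FPKM makes the difference of weak genes smaller than their true ratio. The 24 h group was wild-type C57BL/6 bone marrow-derived macrophages from 8-week-old mice, grown with macrophage colony-stimulating factor (M-CSF) for 5 days and kept in 100 ng/ml LPS for 24 h. The 12 h group was the same except for 12 h of LPS, and the 0 h library, without LPS, is given below only as the resting level. The series also holds macrophages of Setd2-knockout mice, which lack a methyltransferase for lysine 36 of histone H3, at the same times. Its title names lipid metabolism and the resolution of inflammation. Each group had 1 library, so no size below has a replicate error or a test, and the number of mice behind a library is not stated in the labels.

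LPS binds Tlr4 on the macrophage surface and starts signals through the adaptors MyD88 and TRIF. They activate NF-kappaB, the MAP kinases and interferon regulatory factors, and the interferon-beta that follows acts back on the cells through its own receptor. Many of the induced messages are short-lived, and inhibitors made in the same response, such as Tnfaip3, the RNA-binding protein Zfp36 and the dual-specificity phosphatases, limit it as it goes on. Activated macrophages also leave the cell cycle, rely more on glycolysis, and alter how they make, store and export lipids.

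The 2 libraries had an estimated 22020000 counted fragments at 24 h and 21700000 at 12 h, from the smallest steps in the FPKM of weak genes and an assumed read length of 50 nucleotides. Transcript length moved with the difference: the median was 0.41 for genes up to 512 nucleotides and -0.36 for genes over 8192 nucleotides. Across 5285 genes averaging at least 10 FPKM in the 2 libraries, Spearman's rho between length and difference was -0.42, as a description across genes that share the same libraries. What part this trend has in single differences was not tested, and the medians of the main lists are therefore also given with it removed. The 10 most abundant genes took 25.4% of summed FPKM at 24 h, against 15.3% at 12 h. In RNA from a whole culture, fewer cells that express a gene and less of its RNA per cell cannot be told apart.

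**Figure D1:**
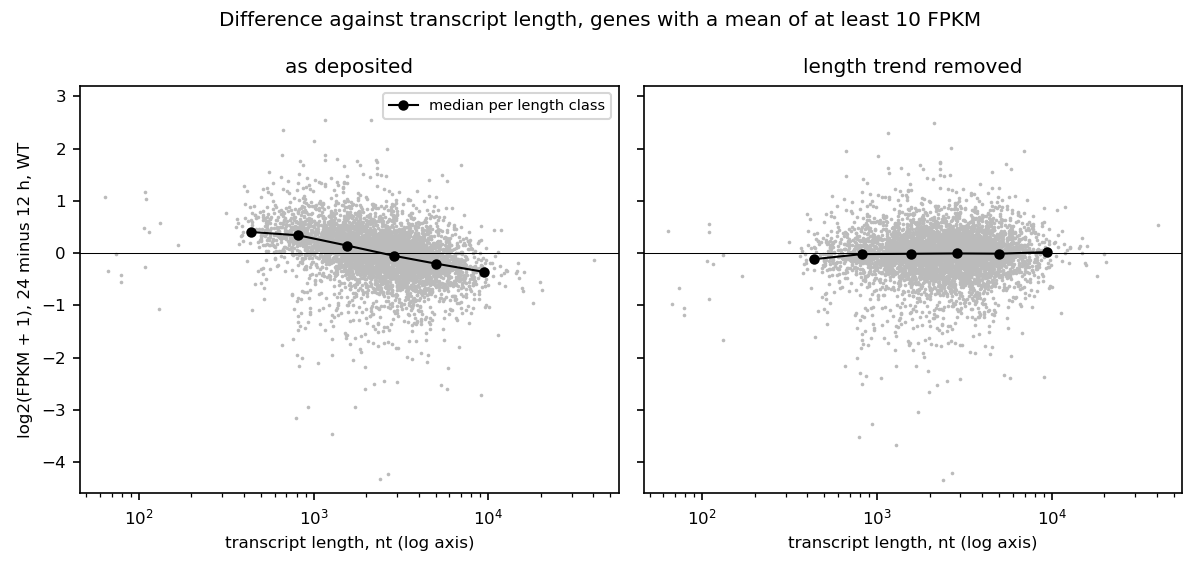
Difference of log2(FPKM + 1) between WT 24 h and WT 12 h (vertical axis) against transcript length in nucleotides on a log axis (horizontal axis), 1 point a gene averaging at least 10 FPKM, as deposited on the left and with the length trend removed on the right; black circles are medians per length class. The deposited class medians run downward with length, at 0.41 up to 512 nucleotides and -0.36 above 8192 nucleotides.

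Macrophage markers were present in both libraries: each of 12 was measured, and their FPKM summed to 15823 at 24 h, against 9704 at 12 h. Of these, 8 had differences above 0 and 4 below, with a median of 0.40 (0.28 with the length trend removed). Lyz2 (lysozyme), Aif1 (a calcium-binding protein) and Mertk were called higher at 24 h, and none was called lower. With the length trend removed, Aif1 lost its call (0.91) and Adgre1 gained one (1.02). Cd14 had the lowest difference, -0.62, with 728 FPKM at 24 h and 1122 FPKM at 12 h. Lyz2 alone had 9015 FPKM at 24 h and 3903 FPKM at 12 h. Lists of other cell types were partly expressed. None of 8 natural killer cell and none of 6 mast cell or basophil markers reached 1 FPKM in either library. Of 8 T cell markers in the table, Il7r, the interleukin 7 receptor, was the one measured and was called lower, and the list summed to 27.1 FPKM at 24 h and 85.2 FPKM at 12 h, with Cd2 at 0. Of 11 dendritic cell markers 3 were measured, and the list summed to 68.5 FPKM at 24 h and 89.6 FPKM at 12 h. It was led by Fscn1, an actin-bundling protein, with Cd209a at 0. Its single call, Batf3, went the other way, with 2.71 FPKM at 24 h and 0.83 FPKM at 12 h. Of 6 B cell markers 1 was measured, with sums of 4.1 FPKM at 24 h and 4.08 FPKM at 12 h and Pax5 at 0. Neutrophil markers reached 1 FPKM for 8 of 12 genes, with summed FPKM of 168 at 24 h and 174 at 12 h. In that list Mmp8 and Ly6g were called higher and Ngp lower. Ly6g had 3.26 FPKM at 24 h and 0.66 FPKM at 12 h, and Ngp had 1.17 FPKM at 24 h and 3.56 FPKM at 12 h. Csf3r, the receptor of Csf3, had 37.5 FPKM at 24 h and 68.2 FPKM at 12 h and was not called. Of 8 monocyte markers 7 were measured and 1, Nr4a1, was called lower, with summed FPKM of 64.4 at 24 h and 59.4 at 12 h. Fibroblast and stromal markers were measured for 4 of 9 genes, with none called. Erythroid and platelet markers were measured for 3 of 8 genes in the table, also with none called. What part other cell types have in the differences below was not tested.

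At 24 h, many cytokine, chemokine, guanylate-binding protein and cell cycle genes stood lower than at 12 h, while several antioxidant and fatty acid synthesis genes, and Saa3, stood higher. The sizes were unequal in number: 439 genes were called lower (4.13%) and 211 higher (1.98%), 6.11% in either direction. The median difference over all 10642 genes was 0.00, and the central 90% lay between -0.91 and 0.73. Genes called lower had a median of 2.98 FPKM at 24 h, against 10.6 FPKM at 12 h and 4.82 FPKM at rest. Genes called higher had a median of 12.6 FPKM at 24 h, against 4.53 FPKM at 12 h and 6.5 FPKM at rest. They were also shorter, with a median transcript length of 1231 nucleotides against 2464 for those called lower and 2743 for all measured genes. With the length trend removed, 369 of the 439 lower and 116 of the 211 higher calls remained. Of the 650 calls, 89 rested on fewer than 20 estimated fragments in each library, and the authors' counting of near-identical copies is not given in the sources used here. Of the calls, 39 higher ones were listed at 0 at 12 h and 49 lower ones at 0 at 24 h. Near the fold limit, 152 called and 193 uncalled genes lay within 0.1 of it. At the expression limit, 62 genes whose higher value was up to 5% above 1 FPKM were inside and 52 up to 5% below it were outside.

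**Figure D2:**
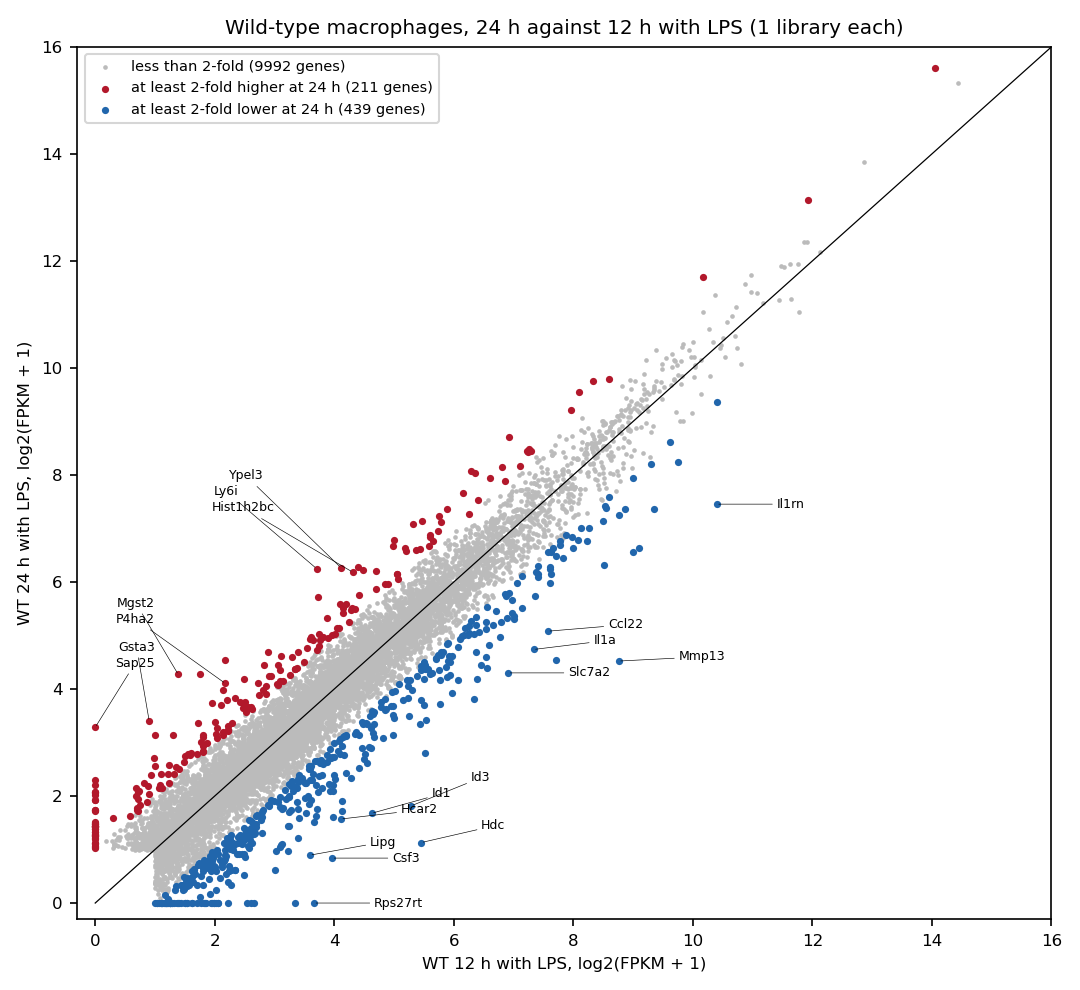
Log2(FPKM + 1) of each of the 10642 measured genes at WT 24 h (vertical axis) and WT 12 h (horizontal axis), with named genes labelled. Below the diagonal, 439 genes were called lower at 24 h, with Hdc and Mmp13 farthest from it among those labelled, and above it 211 were called higher.

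**Figure D3:**
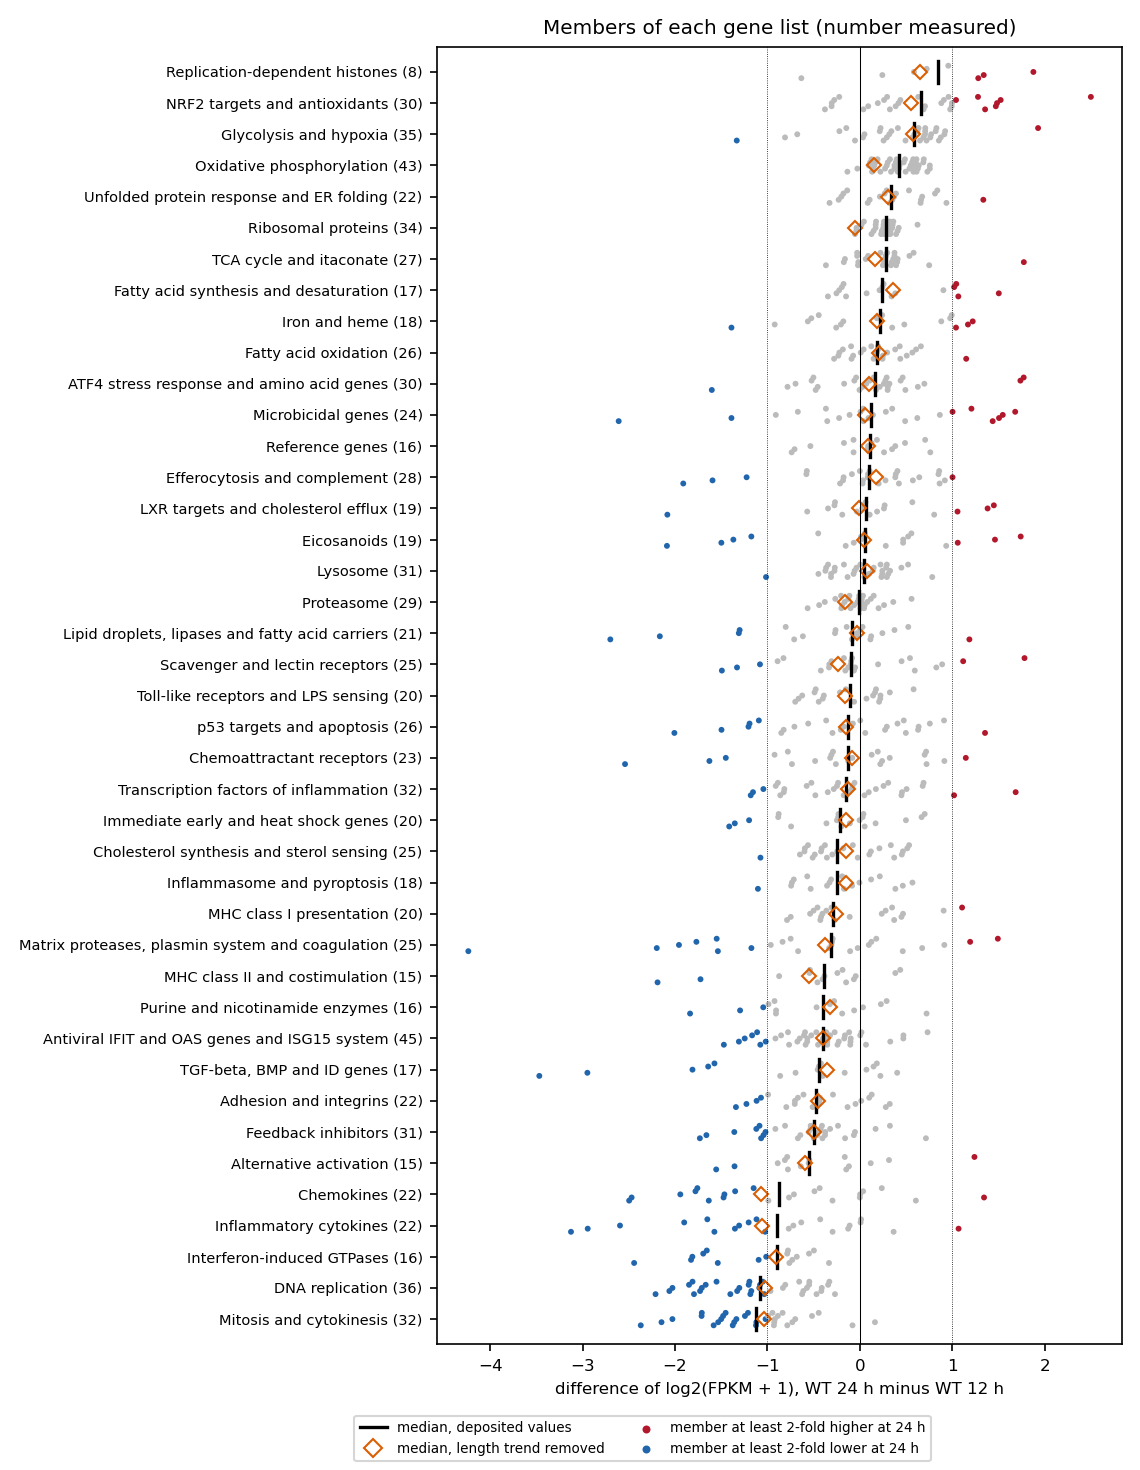
Difference of log2(FPKM + 1), WT 24 h minus WT 12 h, for each measured member (points) of the gene lists (one per line), in red or blue where called and grey otherwise; black bars are the list medians and orange diamonds the medians with the length trend removed. DNA replication, mitosis, cytokine and interferon-induced GTPase lists lie mostly left of 0, and antioxidant, glycolysis and oxidative phosphorylation lists mostly right of it.

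Among genes that reached 5 FPKM, with predicted genes and pseudogenes left out, the largest downward size belonged to Hdc. It encodes histidine decarboxylase, which makes histamine (chromosome 2, 126593659 to 126624025, GRCm38). Hdc stood at 0.25 FPKM at 0 h, 43.0 FPKM at 12 h and 1.19 FPKM at 24 h, a difference of -4.33 between 24 h and 12 h. Its 24 h level lay between the other two. Mmp13, a collagenase (chromosome 9, 7272514 to 7283333), had 3.59 FPKM at 0 h, 433 FPKM at 12 h and 21.99 FPKM at 24 h, a difference of -4.24. Both genes peaked at 12 h and were still above rest at 24 h. Rps27rt, a retrogene copy of a ribosomal protein gene, was listed at 0 at 24 h and at 11.7 FPKM at 12 h, and its reads may be shared with its parent gene.

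With the same limits, and among genes above 0 in both libraries, the largest upward size belonged to Mgst2, a microsomal glutathione S-transferase (chromosome 3, 51636912 to 51682675). Its level was 5.31 FPKM at 0 h, 1.62 FPKM at 12 h and 18.3 FPKM at 24 h, a difference of 2.88 between 24 h and 12 h. The 12 h value, from an estimated 17 fragments, was the lowest of the 3 and the 24 h value the highest. Ly6i, a surface protein of the Ly6 family (chromosome 15, 74979534 to 74983434), was higher at each later time, with 0.22 FPKM at 0 h, 12.0 FPKM at 12 h and 75.1 FPKM at 24 h. Ypel3 had 75.95 FPKM at 24 h and 16.3 FPKM at 12 h, against 82.6 FPKM at rest. Sap25 was at 14.6 FPKM at rest, was listed at 0 at 12 h and was at 8.74 FPKM at 24 h, so no fold is given for it.

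**Figure D4:**
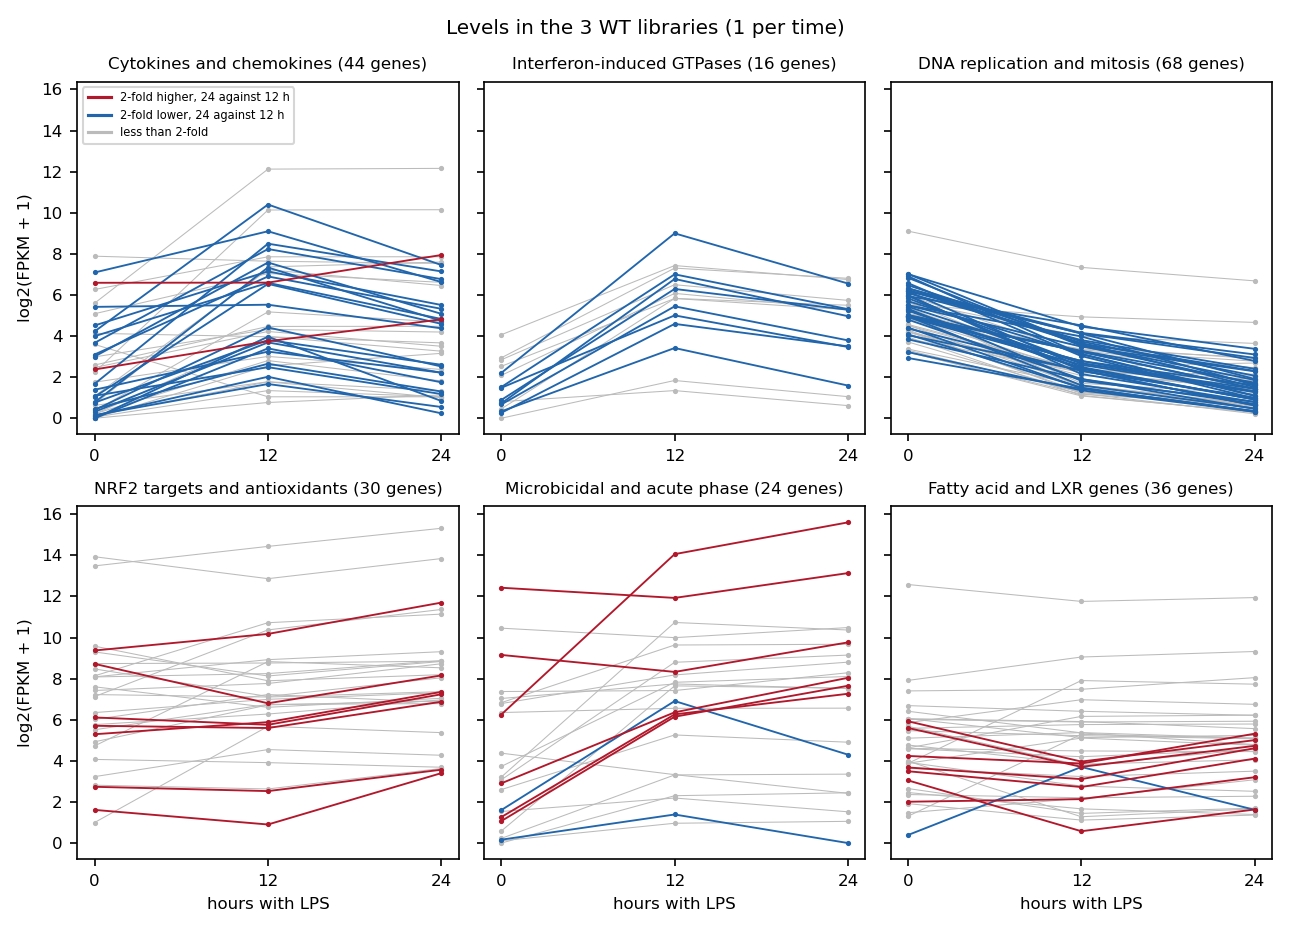
Log2(FPKM + 1) at 0, 12 and 24 h of LPS in wild type for the measured members of 6 gene groups, 1 panel a group, 1 line a gene and 1 library a time, coloured by the call of 24 h against 12 h. Most called cytokines, chemokines and GTPases have their peak at 12 h, DNA replication and mitosis genes called lower step down at both times, and the microbicidal genes called higher stand at their highest at 24 h.

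Many cytokine messages were lower at 24 h. Of 22 measured cytokine genes, 11 were called lower and 1 higher, with a median difference of -0.90 (-1.05 with the length trend removed) against 0.00 over all genes. Csf3, the granulocyte growth factor, was listed at 0 at rest and had 0.79 FPKM at 24 h, against 14.6 FPKM at 12 h. Il1rn, the antagonist of the interleukin 1 receptor, had 175 FPKM at 24 h and 1351 FPKM at 12 h, a difference of -2.95. An agonist of the same receptor, Il1a, had 25.7 FPKM at 24 h and 160 FPKM at 12 h, a difference of -2.60. The other agonist, Il1b, chosen here after its values were seen, did not differ in this way, with 1133 FPKM at 24 h and 1123 FPKM at 12 h. The interleukin 1 genes therefore had unequal sizes over the same interval. Tnf, a central inflammatory cytokine, had 39.1 FPKM at 24 h and 118 FPKM at 12 h, which left it above its resting 7.58 FPKM. The anti-inflammatory Il10 was also called lower, with 1.26 FPKM at 24 h and 4.59 FPKM at 12 h. Il12b, Il6, Il27, Osm, Tnfsf10 and Edn1 were the other members called lower. Vegfa, the vascular growth factor, was the member called higher, with 27.1 FPKM at 24 h and 12.4 FPKM at 12 h.

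Chemokines followed a similar count, with 10 of 22 measured genes called lower and 1 higher and a median difference of -0.88 (-1.08 with the length trend removed, when 13 were called lower and none higher). Ccl22, which attracts T cells through Ccr4, had 32.9 FPKM at 24 h and 190.1 FPKM at 12 h. Ccl9, a monocyte attractant, had 97.9 FPKM at 24 h, against 547 FPKM at 12 h and 136 FPKM at rest, so it ended below its starting level. The monocyte attractants Ccl2 and Ccl7 and the inflammatory chemokines Ccl3 and Ccl4 were called lower with differences between -1.94 and -1.47. Cxcl9 and Cxcl10, interferon-induced ligands of Cxcr3, had differences of -1.48 and -1.35. Ccl17, at 0.18 FPKM at 24 h and 3.05 FPKM at 12 h, rested on few fragments. In contrast, Pf4 (Cxcl4), known from platelets, had 245 FPKM at 24 h, against 96.0 FPKM at 12 h and 95.4 FPKM at rest, a call that ended with the length trend removed (0.90). The level of Ccl5, a T cell and monocyte attractant that was picked after its values were seen, was 4574 FPKM at 24 h and 4462 FPKM at 12 h. Among 23 measured chemoattractant receptors, 3 were called lower and 1 higher, against 4.13% and 1.98% of all genes. The median of these receptors was -0.13, with 10 above 0 and 13 below. Hcar2, the niacin receptor, had 1.97 FPKM at 24 h and 16.3 FPKM at 12 h. Gpr84, a medium-chain fatty acid receptor, had 62.5 FPKM at 24 h and 195 FPKM at 12 h. Cxcr4, which binds Cxcl12, went the other way, with 44.1 FPKM at 24 h and 19.4 FPKM at 12 h, below its resting 122 FPKM.

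Interferon-induced genes differed by class. All 16 measured interferon-induced GTPases, proteins that attack the vacuoles of intracellular microbes, had differences below 0, and 8 were called lower. Their median difference was -0.90, both as measured and with the length trend removed, and their median level was 1.32 FPKM at 0 h, 61.2 FPKM at 12 h and 37.8 FPKM at 24 h. Gbp2 had 93.0 FPKM at 24 h and 510 FPKM at 12 h, a difference of -2.44. Gbp5, which also promotes inflammasome assembly, had 30.2 FPKM at 24 h and 109 FPKM at 12 h. Both remained far above their resting levels of 3.61 and 0.65 FPKM. Gbp3, Gbp4, Gbp7, Gbp9, Iigp1 and Tgtp2 were the other calls, and close copies in these families may share reads. Of 45 antiviral IFIT, OAS and ISG15-system genes, 38 lay below 0 but 7 were called lower and none higher, with a median difference of -0.40 in both versions. The called members were Mx1, Mx2, Isg20, Ifit2, Rsad2, Oasl1 and Cmpk2. Mx1, a GTPase against influenza virus, had 70.1 FPKM at 24 h and 196 FPKM at 12 h. Irf7, a transcription factor of this response that was picked after its values were seen, had a difference of 0.02.

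Promoter windows of Gbp2 and Gbp5 are shown because this family held the most uniform direction among the interferon lists. They are the 250 bases before the RefSeq start of each gene on GRCm38.p6, written 5′ to 3′ on the gene's strand, Gbp2 at chr3:142620413-142620662 and Gbp5 at chr3:142496684-142496933, both on the plus strand. Capitals mark the match to GAAA followed by GAAA after 2 free bases, a pair of interferon-stimulated response element cores, searched on both strands (both windows hold it as TTTC on the printed strand).
Gbp2: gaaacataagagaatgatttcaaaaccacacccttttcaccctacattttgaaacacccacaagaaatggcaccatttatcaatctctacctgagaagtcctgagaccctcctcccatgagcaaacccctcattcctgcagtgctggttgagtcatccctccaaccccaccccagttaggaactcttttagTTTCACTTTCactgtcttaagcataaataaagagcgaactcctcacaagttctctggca
Gbp5: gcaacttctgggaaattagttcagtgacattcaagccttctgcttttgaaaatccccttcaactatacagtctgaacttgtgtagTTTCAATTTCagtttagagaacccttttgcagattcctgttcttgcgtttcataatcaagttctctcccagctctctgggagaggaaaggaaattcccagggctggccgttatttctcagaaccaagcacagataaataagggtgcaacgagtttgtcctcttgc
This pattern was present in 9 of the 10 GTPase genes that had a promoter in the table, against 3.64% of the 8516 measured genes with one and 2.98% of all 32851 promoters. All 5 called GTPases with a promoter held it, as did 4 of the 5 that were not called, so the match did not separate them. A match describes letters and does not show that a factor binds there.

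Regulators of the response were mixed. Of 31 feedback inhibitors, 28 had differences below 0 and 8 were called lower, with a median of -0.50 (-0.49 with the length trend removed, when 6 were called). Tnfaip3 (A20), a ubiquitin-editing enzyme that limits NF-kappaB, had 17.8 FPKM at 24 h and 58.5 FPKM at 12 h. Zfp36 (tristetraprolin), which promotes decay of cytokine messages, had 75.2 FPKM at 24 h and 194 FPKM at 12 h. Dusp1, Dusp2, Dusp4 and Dusp5, phosphatases of MAP kinases, were also called lower, with differences between -1.73 and -1.04. Zc3h12c, of the Regnase family, and Cd274, the ligand of the T cell inhibitory receptor PD-1, completed the 8. Of 32 transcription factors, 3 were called lower (Batf, Nr4a1 and Nr4a3) and 2 higher (Klf2 and Batf3), against 4.13% and 1.98% of all genes. Klf2, which restrains myeloid activation, was one of the higher, with 17.2 FPKM at 24 h, against 4.64 FPKM at 12 h and 14.5 FPKM at rest. None of 20 measured Toll-like receptor and LPS-sensing genes was called, against 6.11% of all genes in either direction, and the sizes ran from -0.70 to 0.58. Of 15 measured MHC class II and costimulation genes, 2 were called lower and none higher, against 4.13% and 1.98% of all genes. Their median was -0.38 (-0.55 with the length trend removed). Of the 2, Cd40 had 17.3 FPKM at 24 h and 82.4 FPKM at 12 h, and Cd86 had 6.45 FPKM at 24 h and 23.6 FPKM at 12 h. The inflammasome sensor Nlrp3 was the single call among 18 genes of its list, at 24.8 FPKM at 24 h and 54.5 FPKM at 12 h. This share is near the 4.13% of all genes called lower.

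Cell cycle genes, which were already far below rest at 12 h, were lower again at 24 h. All 36 measured DNA replication genes had differences below 0 and 21 were called, with a median of -1.08 (-1.03 with the length trend removed, when 18 were called). Their median level was 32.1 FPKM at 0 h, 8.6 FPKM at 12 h and 2.43 FPKM at 24 h. Mcm5, a subunit of the replicative helicase, had 72.9 FPKM at 0 h, 16.4 FPKM at 12 h and 2.76 FPKM at 24 h. Rrm2, a subunit of ribonucleotide reductase, had 94.4 FPKM at 0 h, 7.14 FPKM at 12 h and 0.95 FPKM at 24 h. For mitosis and cytokinesis, 31 of 32 genes lay below 0 and 18 were called, with a median of -1.12 (-1.04 with the length trend removed, when 18 were again called). Mki67, the proliferation marker, had 44.1 FPKM at 0 h, 14.8 FPKM at 12 h and 2.05 FPKM at 24 h. Top2a, the topoisomerase of dividing cells, had 79.8 FPKM at 0 h, 11.6 FPKM at 12 h and 1.85 FPKM at 24 h. The mitotic list had a median of 0.88 FPKM at 24 h and 3.73 FPKM at 12 h, so the added 1 FPKM weighs on its sizes. With 0.1 FPKM added instead, its median difference was -1.91, and with 5 FPKM added it was -0.43.

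The promoter of Mcm6, another helicase subunit (9.39 FPKM at 24 h and 20.97 FPKM at 12 h, called lower), is shown. Of 4 called replication genes with the letters of an E2F site, it was the 1 with a matching window that overlapped no RefSeq gene. Its window held the letters at 2 places. The 250 bases lie on the minus strand at chr1:128359706-128359955, and capitals mark TTTGGCGC, searched on both strands together with TTTCCCGC.
Mcm6: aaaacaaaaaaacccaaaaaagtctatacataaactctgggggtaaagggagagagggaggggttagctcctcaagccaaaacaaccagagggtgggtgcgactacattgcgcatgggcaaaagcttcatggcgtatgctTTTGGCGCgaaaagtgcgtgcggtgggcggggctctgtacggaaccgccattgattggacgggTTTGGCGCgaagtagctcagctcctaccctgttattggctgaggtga
Either pattern was found in 5 of 30 replication genes with a promoter, against 3.11% of measured genes and 1.3% of all promoters. The CHR letters TTTGAA were found in 10 of 28 mitotic genes, against 12.9% of measured genes and 15.99% of all promoters.

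Inhibitors of differentiation were among the largest sizes. Id3, which blocks basic helix-loop-helix factors, had 179 FPKM at 0 h, 38.0 FPKM at 12 h and 2.52 FPKM at 24 h, a difference of -3.47 between 24 h and 12 h. Id1 was unlike it at 12 h, with 22.8 FPKM at 0 h, 23.7 FPKM at 12 h and 2.2 FPKM at 24 h. Id2 had 40.1 FPKM at 24 h and 127 FPKM at 12 h. Smad6, an inhibitor of bone morphogenetic protein signalling, and Inhba, an activin subunit, were the other calls among 17 genes of this list. Of the 17, 5 were called lower and none higher, against 4.13% and 1.98% of all genes. Of 23 replication-dependent histone genes 8 were measured, and 10 were listed at 0 at 12 h. The measured ones had the opposite direction: 3 of 8 were called higher and none lower, with a median of 0.84 (0.66 with the length trend removed). Hist1h2bg, 1 of the 3, rested on an estimated 25 fragments at 24 h and 3 at 12 h. Without the minimum of 1 FPKM the list's median was 0.31. Hist1h2bc had 71.8 FPKM at 24 h, against 18.8 FPKM at 12 h and 31.8 FPKM at rest. Histone genes are short and alike, and 2 of the 8 were called with the length trend removed.

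Antioxidant genes stood higher at 24 h as a group. Of 30 NRF2 targets and antioxidants, 25 lay above 0 and 7 were called higher and none lower, with a median of 0.66 (0.56 with the length trend removed, when 7 were again called). Prdx1, a peroxiredoxin that reduces peroxides, had 662 FPKM at 0 h, 1158 FPKM at 12 h and 3330 FPKM at 24 h. Cat (catalase) had 68.2 FPKM at 0 h, 53.03 FPKM at 12 h and 150.2 FPKM at 24 h. Gpx1, a glutathione peroxidase, had 421 FPKM at 0 h, 111 FPKM at 12 h and 285 FPKM at 24 h. The 24 h level of Prdx1 and of Cat exceeded both earlier ones, while that of Gpx1 was below rest. Gsta3, a glutathione S-transferase, had 9.58 FPKM at 24 h and 0.87 FPKM at 12 h, the 12 h value from an estimated 19 fragments. Prdx6, Mgst1 and the iron exporter Slc40a1 were the other calls. Hmox1 (heme oxygenase), chosen after its values were seen and at 2643 FPKM at 24 h and 1326 FPKM at 12 h, was just short of a call with 0.99. The antioxidant response element core TGACNNNGC occurred in 7 of 25 promoters of this list, against 14.2% of measured genes and 10.2% of all promoters. Metallothioneins Mt1 and Mt2, which bind zinc and copper, were also called higher, with differences of 1.17 and 1.22 as measured and 0.71 and 0.75 with the length trend removed, which ends both calls.

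Microbicidal and acute-phase genes split. Among 24 measured genes, 6 calls were higher and 2 lower, against 1.98% and 4.13% of all genes. The median difference was 0.12 (0.061 with the length trend removed). Saa3, an acute-phase serum amyloid A protein (chromosome 7, 46711998 to 46719615), had 75.3 FPKM at 0 h, 17094 FPKM at 12 h and 49931 FPKM at 24 h. It took 8.96% of all summed FPKM at 24 h and 3.58% at 12 h. Its transcript is 555 nucleotides long, and its difference was 1.55 as measured and 1.09 with the length trend removed. Slpi, a protease inhibitor of secretions, had 263 FPKM at 24 h and 81.2 FPKM at 12 h. Marco, a scavenger receptor for bacteria, had 201 FPKM at 24 h, against 70.0 FPKM at 12 h and 1.1 FPKM at rest. Haptoglobin (Hp) and the lysozymes Lyz1 and Lyz2, near-identical copies that may share reads, were the other higher calls. Slc7a2, the arginine transporter of activated macrophages, had 18.7 FPKM at 24 h and 119 FPKM at 12 h. Nos2, which makes nitric oxide from arginine and was likewise picked afterwards, was not called, with 185 FPKM at 24 h and 199.9 FPKM at 12 h. Arg1, arginase, competes for the same substrate and had 0.51 FPKM at 0 h, 40.2 FPKM at 12 h and 96.5 FPKM at 24 h. Hamp (hepcidin), the other lower call, was listed at 0 at 24 h and at 1.62 FPKM at 12 h. Its 12 h value came from an estimated 13 fragments.

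Genes of lipid handling had no shared direction. Fatty acid synthesis and desaturation had 4 of 17 measured genes called higher and none lower, against 1.98% and 4.13% of all genes. The median was 0.24 (0.36 with the length trend removed, when 3 were called). Scd2, a stearoyl-CoA desaturase, had 23.5 FPKM at 24 h, against 7.64 FPKM at 12 h and 11.8 FPKM at rest. Fads1, a desaturase of long polyunsaturated fatty acids, had 25.5 FPKM at 24 h and 12.1 FPKM at 12 h. Me1, which supplies NADPH, and Mid1ip1, an activator of acetyl-CoA carboxylase, completed the 4. In the LXR and cholesterol efflux list, 3 of 19 were called higher and 1 lower, against 1.98% and 4.13% of all genes. The median of that list was 0.062 (-0.013 with the length trend removed). Abcg1, which exports cholesterol to lipoproteins, had 10.3 FPKM at 0 h, 5.62 FPKM at 12 h and 16.3 FPKM at 24 h. Abca1, the partner exporter, was chosen after its values were seen and had 33.4 FPKM at 24 h and 38.2 FPKM at 12 h. Ch25h, which makes 25-hydroxycholesterol, had 2.07 FPKM at 24 h and 12.0 FPKM at 12 h. Cholesterol synthesis had 1 of 25 genes called lower (Hsd17b7) and none higher, a share near the 4.13% of all genes. Its median was -0.24 (-0.14 with the length trend removed, when that call ended).

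Carriers and lipases gave the widest range among the lipid lists. Of 21 measured genes 4 were called lower and 1 higher, against 4.13% and 1.98% of all genes. Lipg, endothelial lipase, had 0.86 FPKM at 24 h and 11.1 FPKM at 12 h. Lpl, lipoprotein lipase, had 524 FPKM at 0 h, 124 FPKM at 12 h and 49.9 FPKM at 24 h. The fatty acid-binding proteins Fabp3 and Fabp5 were called in opposite directions: Fabp3 had 20 FPKM at 24 h and 93.2 FPKM at 12 h, while Fabp5 had 885 FPKM at 24 h and 389 FPKM at 12 h. Fabp5 had 922 FPKM at rest, so its 12 h level was the low one. Eicosanoid genes were likewise divided, with 4 of 19 called lower and 3 higher, against 4.13% and 1.98% of all genes. Ptgs2 (cyclooxygenase-2) had 9.23 FPKM at 24 h and 42.5 FPKM at 12 h, and Ptges, the prostaglandin E synthase coupled to it, had 152 FPKM at 24 h and 432 FPKM at 12 h. Ptgr1, which inactivates leukotriene B4 and reduces prostaglandin derivatives, had 73.8 FPKM at 24 h and 21.4 FPKM at 12 h. Pla2g7, which hydrolyses platelet-activating factor, had 70.3 FPKM at 0 h, 273 FPKM at 12 h and 754 FPKM at 24 h. Alox5ap, which supplies 5-lipoxygenase in leukotriene synthesis, was the other higher call, with 286 FPKM at 24 h and 137 FPKM at 12 h. Hpgds, a prostaglandin D synthase, and Pla2g16, a phospholipase, were the other lower calls.

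Energy metabolism genes had small differences, mostly above 0. Of 35 glycolysis and hypoxia genes, 29 lay above 0, with a median of 0.59 (0.57 with the length trend removed). Of them 1 was called higher and 1 lower, against 1.98% and 4.13% of all genes. P4ha2, a collagen prolyl hydroxylase, had 16.2 FPKM at 24 h and 3.52 FPKM at 12 h. Slc2a6, a hexose transporter of the lysosome, had 76.6 FPKM at 24 h and 194 FPKM at 12 h. In the tricarboxylic acid cycle list, Idh1, the cytosolic isocitrate dehydrogenase, was the single call of 27, with 109 FPKM at 24 h and 31.1 FPKM at 12 h. Over all genes, 1.98% were called higher and 6.11% in either direction. Acod1, which makes itaconate and was also picked afterwards, had 1321 FPKM at 24 h and 1704 FPKM at 12 h and was not called. Of 43 oxidative phosphorylation genes, 41 lay above 0 and none was called in either direction, against 6.11% of all genes. Their median of 0.42 was 0.15 with the length trend removed. Ribosomal protein genes, which are short, had a median of 0.28 over 34 genes as measured and -0.058 with the trend removed, so their direction turned. Proteasome genes had a median of -0.0073 over 29 genes, and -0.16 with the trend removed.

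Matrix and adhesion genes were lower in count. Of 25 matrix protease, plasmin system and coagulation genes, 7 were called lower and 2 higher, against 4.13% and 1.98% of all genes. Thbs1, thrombospondin, had 79.1 FPKM at 24 h and 366 FPKM at 12 h. Plau, urokinase, had 121 FPKM at 0 h, 17.4 FPKM at 12 h and 4.41 FPKM at 24 h, and its receptor Plaur had 37.1 FPKM at 24 h and 109.6 FPKM at 12 h. Mmp8, a neutrophil collagenase by name, had 47.3 FPKM at 24 h and 16.1 FPKM at 12 h. Of 22 adhesion genes 4 were called lower and none higher, against 4.13% and 1.98% of all genes. Among the 4, Itga5, the fibronectin receptor subunit, had 88.4 FPKM at 24 h and 208 FPKM at 12 h. The Mmp13 promoter is shown because that gene had the largest size of the matrix protease list. It is the plus-strand stretch chr9:7272264-7272513, and capitals mark the AP-1 letters TGANTCA, a palindromic pattern read on both strands.
Mmp13: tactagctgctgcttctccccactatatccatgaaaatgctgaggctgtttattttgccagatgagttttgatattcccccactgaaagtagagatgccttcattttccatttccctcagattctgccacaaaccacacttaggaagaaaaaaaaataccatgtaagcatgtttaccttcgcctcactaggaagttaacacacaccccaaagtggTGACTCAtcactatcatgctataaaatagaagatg
These letters were present in 4 of the 18 promoters of the list and in 4 of its 7 called genes with a promoter, against 5.53% of measured genes and 6.75% of all promoters.

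Surface receptors for clearance were split as well. Among 28 efferocytosis and complement genes, 3 were called lower and 1 higher, against 4.13% and 1.98% of all genes. Their median was 0.10 (0.17 with the length trend removed), with 18 above 0 and 9 below. Axl and Mertk, related receptors that bind dying cells through bridging proteins, went opposite ways. Axl had 16.9 FPKM at 24 h and 66.2 FPKM at 12 h, whereas Mertk had 18.2 FPKM at 24 h and 8.56 FPKM at 12 h. Mrc1, the mannose receptor of alternatively activated macrophages, had 23.6 FPKM at 0 h, 10.4 FPKM at 12 h and 2.89 FPKM at 24 h. Fcgr2b, the inhibitory Fc receptor, had 24.0 FPKM at 0 h, 463 FPKM at 12 h and 164 FPKM at 24 h. Clec4n (dectin-2), a receptor for fungal mannans, had 16.8 FPKM at 0 h, 77.5 FPKM at 12 h and 269 FPKM at 24 h. Lysosomal genes had 1 of 31 called lower, Atp6v0d2, and none higher, a share no larger than the 4.13% of all genes.

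Among survival and stress genes, 5 of 26 p53 and apoptosis genes were called lower and 1 higher, against 4.13% and 1.98% of all genes. Their median was -0.12, with 12 above 0 and 14 below. The higher call was Phlda3, with 5.01 FPKM at 24 h and 1.35 FPKM at 12 h. Bcl2a1d and Bcl2a1b, near-identical anti-apoptotic copies that may share reads, had 20.8 and 71.4 FPKM at 24 h, against 86.6 and 166 FPKM at 12 h. Gadd45b and Gadd45g, stress-induced regulators of growth arrest, had differences of -1.19 and -1.09. Of 30 ATF4 stress response and amino acid genes, 2 were called higher and 1 lower, against 1.98% and 4.13% of all genes. Atf5, a transcription factor of the mitochondrial stress response, was 1 of the 2, with 135 FPKM at 24 h and 38.7 FPKM at 12 h. Psat1, of serine synthesis, was the lower call, with 34.1 FPKM at 0 h, 14.9 FPKM at 12 h and 4.24 FPKM at 24 h. Sdf2l1, a folding factor of the endoplasmic reticulum, was the single call among 22 unfolded protein response genes. It had 138 FPKM at 24 h and 53.9 FPKM at 12 h. Outside these lists, 3 of 16 measured purine and nicotinamide genes were called lower and none higher. Adora2b, an adenosine receptor, was 1 of the 3, with 7.83 FPKM at 24 h and 30.6 FPKM at 12 h.

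The Setd2-knockout libraries at 24 h and 12 h give the same interval in other cells, with no library shared. Over the 10642 genes, 841 were called lower (7.9%) and 512 higher (4.81%) in the knockout. Of the wild-type lower calls, 264 were also called lower in the knockout, 60.1% of the wild-type and 31.4% of the knockout list. Of the higher calls, 117 were shared, 55.5% of the wild-type and 22.9% of the knockout list. The wild-type lower calls lay below 0 in the knockout in 90.4% of cases, against 54.2% of all measured genes, and the higher calls above 0 in 81.5%, against 45.2%. Both pairs used the same times, and each rests on 1 library a side. With the length trend removed from both pairs, 74 genes were shared higher calls and 288 were shared lower calls. The shares by sign were not computed with the trend removed. As deposited, 12 wild-type higher calls were called lower in the knockout, and 7 wild-type lower calls were called higher. Ccl7 was 1 of the 7, but its knockout call ended with the length trend removed (1.21 as deposited, 0.48 without the trend). In wild type it had 23.1 FPKM at 24 h and 91.8 FPKM at 12 h, while in the knockout it had 832 FPKM at 24 h and 360 FPKM at 12 h. Csf3, Id1 and Id3, called lower in wild type, had knockout differences of 0.05, 0.22 and -0.97 as deposited. With the length trend removed these were -0.34, -0.43 and -1.43. Scd2 and Abcg1, called higher in wild type, had knockout differences of 0.19 and 0.13 as deposited and 0.68 and 0.66 with the length trend removed. Cholesterol synthesis had a median of -0.24 in wild type and -0.85 in the knockout (-0.14 and -0.64 with the length trend removed). Whether any of these sizes differs between genotypes could not be tested with 1 library a group.

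**Figure D5:**
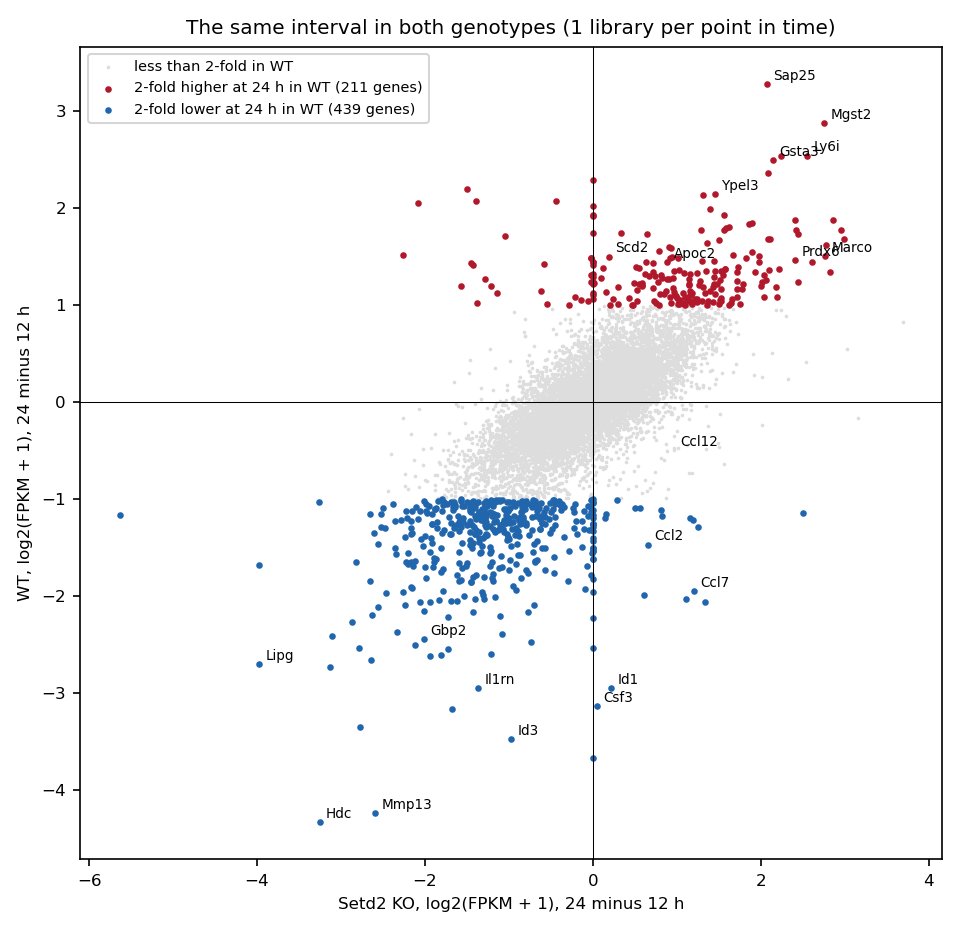
Difference of log2(FPKM + 1), 24 h minus 12 h, in wild-type macrophages (vertical axis) and in Setd2-knockout macrophages (horizontal axis), 1 point a gene, with the genes called in wild type coloured. Of 439 wild-type lower calls, 264 were also called lower in the knockout, and Ccl7 lies in the lower right, called lower in wild type and, as deposited but not with the length trend removed, higher in the knockout.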

How the data were processed

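RNA of 6 libraries, 1 a group, was sequenced on a BGISEQ-500 per the labels, and 5 libraries were used here. The authors deposited 1 table of FPKM per gene, per the file headers. Per the submitters' processing notes, Bowtie2, RSEM and GRCm38 were used; their versions, filters and strand setting are not given in the sources used here. FPKM divides by transcript length and library total, so a few abundant genes lower all the others. Of 17905 rows, 1 without a gene was dropped and 25 symbols turned into dates were restored; 1 column of per-sample values was not used.

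Differences of log2(FPKM + 1) were computed for genes at 1 FPKM or more in either library and called at 1. No test was possible with 1 library a group. The trend with transcript length (99.3% of measured genes had one) was removed with lowess, span 0.3, fitted on genes averaging at least 10 FPKM; the calculation was tested on simulated data. Fragment numbers were estimated from FPKM steps with 50-nucleotide reads assumed, and they cover counting only. Genes were named as the 15 largest sizes each way among genes reaching 5 FPKM, and of each list the called members and up to 4 of the largest size. Predicted genes, clones, microRNA genes and pseudogenes, known by their symbols, were counted and not named or ranked (41 higher and 54 lower calls). Further genes are marked as chosen after their values were seen. Some genes that this rule gives are not reported here. The members and lists were chosen with earlier results of these data known. Alternatives were other added values, minimums, fold limits, scalings and the length trend. Promoters are RefSeq's on GRCm38.p6, 250 bases before each start. Python 3.11.15, pandas 2.3.3, numpy 2.4.6, statsmodels 0.14.6 and matplotlib 3.10.9 were used.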

Additional observations from a re-analysis of the deposited data

Results flagged for a closer look

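Ccl7, a monocyte attractant (chromosome 11, 82045712 to 82047525, GRCm38), was called in opposite directions over the same interval in the 2 genotypes. The wild-type libraries held 23.1 FPKM at 24 h and 91.8 FPKM at 12 h, a difference of -1.94 on the log2(FPKM + 1) scale. The Setd2-knockout libraries held 832 FPKM at 24 h and 360 FPKM at 12 h, a difference of 1.21 as deposited, which was 0.48 and no longer a call with the length trend removed. Ccl7 was the 1 gene with opposite calls among those that the naming rule gave. Over all genes, 12 wild-type higher and 7 wild-type lower calls were called the other way in the knockout as deposited. With 1 library a group, the difference of Ccl7 between genotypes was not tested.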

How the results depend on the processing

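With 1 library a group no replicate could be left out, and no depth-based error can be given for a difference. No paired analysis was possible because each group has 1 library and no test was run. Against 211 genes called higher and 439 lower, adding 0.1 FPKM before the log gave 402 and 672, and adding 5 FPKM gave 81 and 162. A fold limit of 1.5 gave 903 higher and 1135 lower, and a limit of 3 gave 41 and 112. A minimum of 5 FPKM left 285 lower calls. Counts stayed within 1.5 times without a minimum, with median-of-ratios or trimmed-mean scaling, and with the length trend removed (148 higher and 444 lower). Counts shared with the knockout were added after seeing the data. The 117 shared higher calls became 222 and 58 with 0.1 and 5 FPKM added, 594 and 19 at fold limits of 1.5 and 3, and 74 without the length trend. The 264 shared lower calls became 467 and 85 with those added values, 844 and 50 at those limits, and 288 without the length trend. The ribosomal protein median of 0.28 turned to -0.058 without the length trend, and the cause was not tested. All 211 called genes that the naming rule gave kept their direction under the other added values, scalings and length trend; 130 were still called with 5 FPKM added, 207 with trimmed-mean scaling and 186 without the length trend. Among those the report names, Aif1, Alox5ap, Batf3, Cd274, Fabp5, Hist1h2bg, Hp, Hsd17b7 and Mcm6 lost their call without that trend. So did Mid1ip1, Mt1, Mt2, Nlrp3, Nr4a3, Pf4, Tgtp2 and Zc3h12c.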
